A study of Homo sapiens with 4 samples.

Results

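Expression of 10 genes of the NF-κB pathway was followed in HCT116-MT and HCT116-WT cells: the chemokine genes *CXCL1*, *CXCL2*, *CXCL3*, *CXCL8* (listed on the array as *IL8*), *CCL20* and *CXCL16*, and the regulator genes *NFKBIA*, *TNFAIP3*, *BIRC3* and *RELB*. They were chosen by name as secreted signals and feedback genes of NF-κB. Of the 10 genes, 9 had 1 or more named probes, 11 probes in all, and 7 had a probe detected on at least 2 of the 4 arrays. In the whole series 20046 genes had a named probe and 11875 were measured by that criterion. *BIRC3*, which encodes an inhibitor of apoptosis that also acts as a ubiquitin ligase below the TNF receptor, had no named probe, and no level is given for it.

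HCT116 is a colorectal cancer cell line that carries a wild-type and a mutant allele of *CTNNB1*, which encodes the adhesion and signaling protein β-catenin. In HCT116-MT the wild-type allele was knocked out, so that mutant β-catenin alone is made, and in HCT116-WT the mutant allele was, so that these cells make the wild-type protein alone. Both were bought as single sublines, so that any difference between them is a difference between these sublines, and the parental line was not on the arrays. All cells were untreated and grown in RPMI medium with fetal bovine serum. Total RNA of 2 HCT116-MT samples and 2 HCT116-WT samples was measured on Illumina HumanHT-12 v4 BeadChips, 1 array per sample, to compare gene expression under the 2 forms of β-catenin.

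NF-κB is a family of paired transcription factors held in the cytoplasm by IκB proteins. Signals such as TNF or interleukin-1 activate the IκB kinase complex, IκB is destroyed, and NF-κB enters the nucleus and binds κB elements in target genes. Among these targets are chemokines, which draw leukocytes to the tissue, and NF-κB's own inhibitors, which close the loop. In the colon, epithelial and tumor cells themselves secrete CXC chemokines that attract neutrophils, and CCL20, which attracts CCR6-bearing lymphocytes and dendritic cells.

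Sequences like a κB element are printed here because they are a feature that most of these genes have in common. The genes were chosen by name as NF-κB genes, so that the shares below are not independent of that choice. Promoter windows from 250 bases before to 50 bases after the start site (RefSeq, GRCh38.p14) were searched on both strands for GGAATTTCC and for GGGNNNTTCC, and overlapping matches were joined. A window was given for 8 of the 10 genes and all 8 held a match to either motif (100%), against 6.74% of the 35116 promoters of the table. For GGAATTTCC alone it was 5 of 8, against 0.461% of all promoters, and for GGGNNNTTCC 7 of 8, against 6.52%. Each line below runs 5′ to 3′ along the gene's own strand, with the match in capitals. A match describes the letters in this window and is not a measured binding site.
CXCL1 (chr4:73869294-73869344, plus strand): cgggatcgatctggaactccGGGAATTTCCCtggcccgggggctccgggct
CXCL2 (chr4:74099243-74099293, minus strand): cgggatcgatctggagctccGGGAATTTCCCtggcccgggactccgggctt
CXCL3 (chr4:74038738-74038788, minus strand): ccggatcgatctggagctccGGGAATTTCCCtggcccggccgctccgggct
CXCL8 (chr4:73740458-73740506, plus strand): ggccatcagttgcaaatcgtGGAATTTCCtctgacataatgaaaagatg
CCL20 (chr2:227813743-227813792, plus strand): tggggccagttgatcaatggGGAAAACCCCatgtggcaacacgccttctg
NFKBIA (chr14:35404801-35404850, minus strand): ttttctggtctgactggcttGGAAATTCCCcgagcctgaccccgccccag
TNFAIP3, first match (chr6:137867172-137867221, plus strand): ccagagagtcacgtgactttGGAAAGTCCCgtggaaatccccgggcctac
TNFAIP3, second match (chr6:137867184-137867233, plus strand): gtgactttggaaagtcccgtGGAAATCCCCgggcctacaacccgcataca
BIRC3 (chr11:102317265-102317314, plus strand): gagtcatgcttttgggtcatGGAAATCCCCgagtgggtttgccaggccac
*CXCL1*, *CXCL2* and *CXCL3* held the same capital run, in which matches to both motifs overlap. Counted from the start site, the match began at position -79 in *CXCL1*, *CXCL3* and *CCL20*, -78 in *CXCL2*, -81 in *NFKBIA*, -91 in *CXCL8*, -67 and -55 in *TNFAIP3* and -199 in *BIRC3*.

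On the arrays, 19604 and 20030 of 47321 probes were detected in HCT116-MT and 19766 and 20101 in HCT116-WT (detection p under 0.05 against the negative controls of the array). The HCT116-MT arrays correlated at r = 0.980 over the probes kept, whereas the HCT116-WT arrays were as far from each other (r = 0.965) as from the other line (r = 0.964 to 0.969). Replicate 1 of HCT116-WT stood apart in interferon-stimulated genes: of 13 measured genes of a list added after the data were seen, 12 were higher than on replicate 2 by more than 1 on the log2 scale, with a median of 2.54. Results below are therefore also given without single arrays. Separate cultures are not stated for the duplicate samples, and p-values therefore reflect the spread among the 4 samples alone, which can be technical. *CTNNB1* itself had intensities of 2833 and 2196 in HCT116-MT and 2143 and 1949 in HCT116-WT (limma adjusted p = 0.757 for a log2 fold change of 0.29, SE 0.22). Its other kept probe had 2632 and 2046 in HCT116-MT and 1730 and 1814 in HCT116-WT (log2 fold change 0.39, SE 0.20). Of 9 colon epithelial markers 4 were detected on 2 or more arrays, *EPCAM*, *KRT8*, *KRT19* and *CDX2*, whereas *VIL1*, *CDH17*, *LGALS4*, *CDX1* and *KRT18* were detected on 0 arrays. Their summed intensity was 17292 and 20762 in HCT116-MT and 33315 and 28476 in HCT116-WT. Of 14 leukocyte markers 4 were detected on 2 or more arrays and 8, among them the pan-leukocyte marker *PTPRC* and the T-cell markers *CD3D* and *CD3E*, on 0 arrays.

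No measured gene of the 10 differed between the lines at the thresholds of the study, an unadjusted p under 0.05 with a fold change over 1.5. Of the 7 measured genes 0 were higher and 0 lower in HCT116-MT, where 3.46% and 3.85% of all 11875 genes were (7.31% in either direction). At adjusted p under 0.05 with limma 0 of 7 were called (0.0674% of all genes), and at unadjusted p under 0.05 also 0 of 7 (9.28% of all genes). With the brightest kept probe of each gene, in 0 of 7 genes were the 2 arrays of one line both above those of the other, which was so in 39.9% of all genes. Only *CXCL8* and *TNFAIP3* had a fold change over 1.5, 2 of 7 (28.6%) against 10.1% of all genes, and both had the higher mean in HCT116-MT. The median log2 fold change, HCT116-MT over HCT116-WT, was 0.09 over the 7 genes and 0.00 over all genes. Scaling moved the balance of all calls: 47.4% of them were higher in HCT116-MT, and this share was 37.5% when cyclic loess was used, 32.5% after median scaling and 17.7% without normalization, which put the median of all genes at -0.12.

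**Figure D1:**
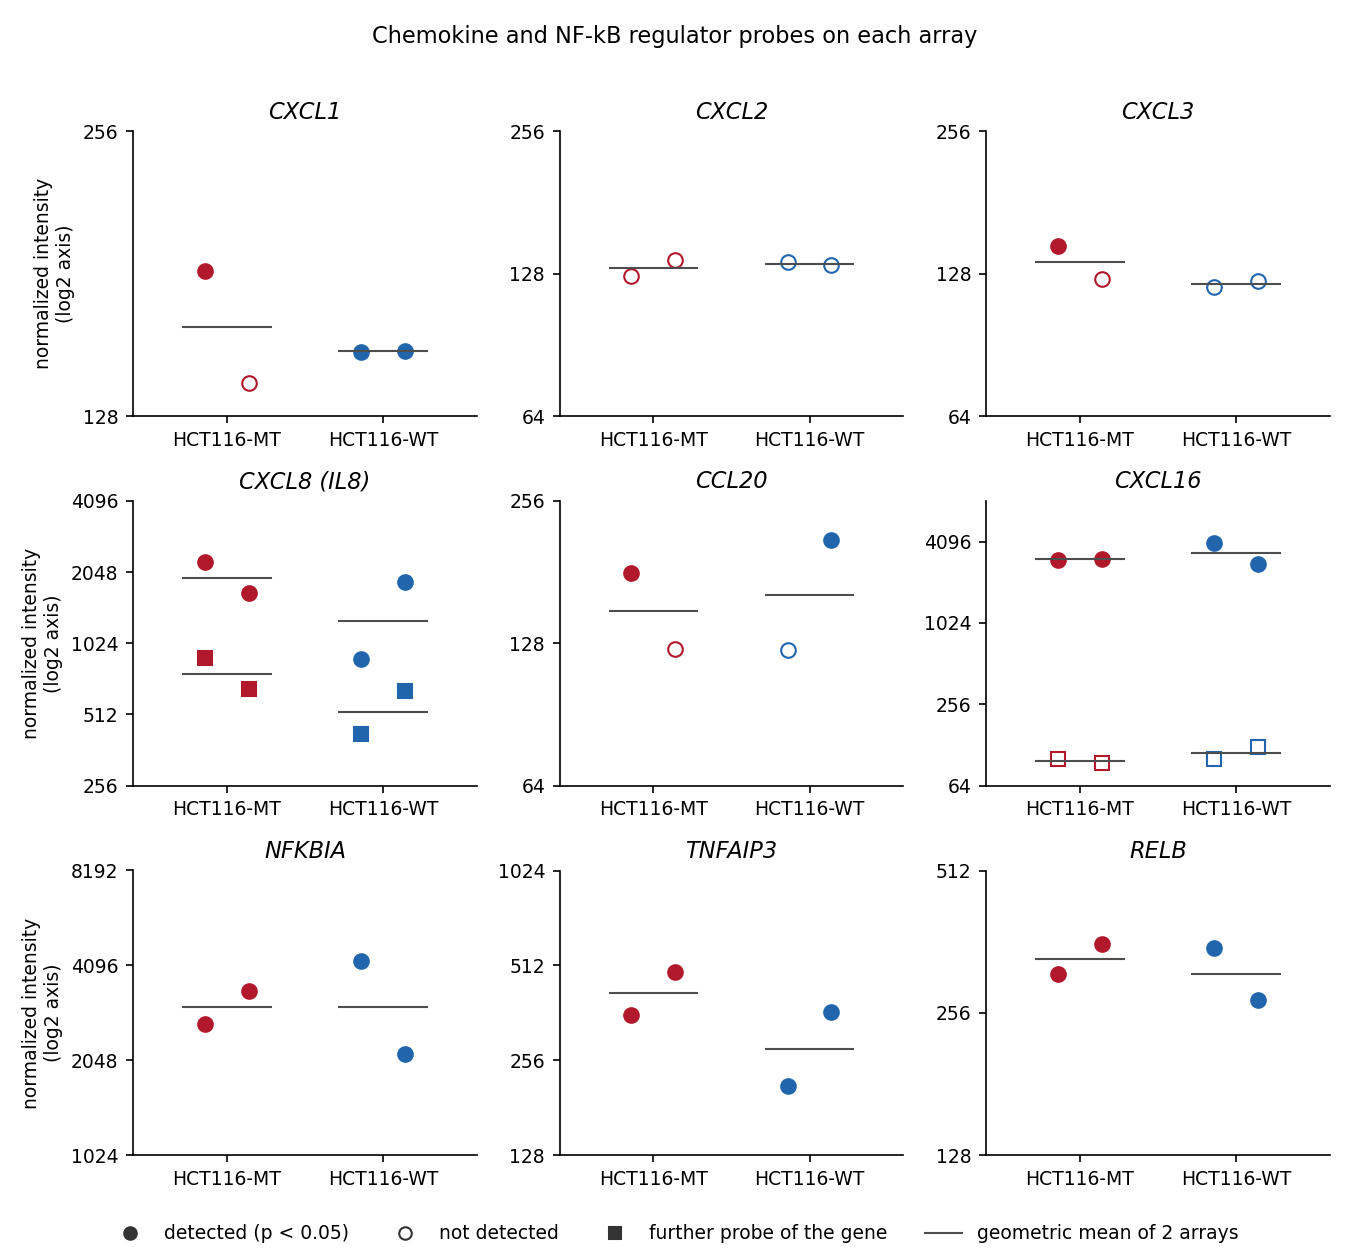
Quantile-normalized intensity (log2 axis, its range set per gene) of each probe of the 9 genes with a probe, on the 2 HCT116-MT arrays (red, left) and the 2 HCT116-WT arrays (blue, right), replicate 1 left of replicate 2. Filled symbols were detected (p under 0.05), open ones were not, squares are a further probe of the same gene and lines are geometric means. With the probe that stands for each gene the lines overlap in all 7 measured genes, and *CXCL8* spans 875 to 1866 within HCT116-WT alone.

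*CXCL1*, *CXCL2* and *CXCL3* encode closely related ligands of the receptor CXCR2 that recruit neutrophils, and their promoter windows above hold the same κB-like run. All 3 lay at the limit of detection in both lines. *CXCL1* had normalized intensities of 182 and 139 in HCT116-MT and 150 and 150 in HCT116-WT, and was detected on 1 HCT116-MT array (detection p 0.0104, the other 0.0623) and on both HCT116-WT arrays (0.0364 and 0.0390). The HCT116-MT arrays lay on either side of the HCT116-WT pair, and the log2 fold change was 0.09 (SE 0.22, 95% interval -0.44 to 0.61, adjusted p = 0.945 with limma). *CXCL2* was at 126 and 137 in HCT116-MT and 135 and 133 in HCT116-WT and was detected on 0 arrays (detection p 0.0675 to 0.129). *CXCL3* was at 147 and 125 in HCT116-MT and 120 and 123 in HCT116-WT and was detected only on replicate 1 of HCT116-MT, where the detection p-value was 0.0481. For these 2 genes no fold change is given, since they were detected on fewer than 2 of the 4 arrays and did not enter the fit.

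*CXCL8* encodes interleukin-8, a strong neutrophil attractant that is also a growth and motility signal for carcinoma cells. Both of its probes were detected on all 4 arrays. The brighter probe had intensities of 2253 and 1667 in HCT116-MT, against 875 and 1866 in HCT116-WT. Replicate 1 of HCT116-WT was the low array, and replicate 2 of HCT116-WT lay between the HCT116-MT arrays. The second probe had 889 and 654 in HCT116-MT and 423 and 645 in HCT116-WT, with the same array lowest. On this probe both HCT116-MT arrays lay above both HCT116-WT arrays, by a narrow margin. The log2 fold change was 0.60 (SE 0.39, 95% interval -0.34 to 1.54, adjusted p = 0.702 with limma), which spans folds of 0.791 to 2.91, and the second probe gave 0.55 (SE 0.28). The distance between the 2 HCT116-WT arrays, 1.09 on the log2 scale, was larger than this difference. Without replicate 1 of HCT116-WT the log2 fold change was 0.05. Without replicate 2 of HCT116-WT it was 1.15, past the study thresholds, with adjusted p = 0.224 by limma and a range of 0.224 to 1 over all alternatives.

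*CCL20*, the ligand of CCR6, had intensities of 180 and 124 in HCT116-MT and 124 and 211 in HCT116-WT. It was detected on 1 array of each line, replicate 1 of HCT116-MT (detection p-value 0.0104) and replicate 2 of HCT116-WT (0.0013). Each line thus had 1 array at background and 1 above it, so that the fold change rests partly on background signal and has little meaning as a measured difference. It entered the fit with 2 detected arrays, and the log2 fold change was -0.11 (SE 0.33, 95% interval -0.91 to 0.68, adjusted p = 0.951 with limma). *CXCL16*, a chemokine made as a membrane protein and shed by metalloproteases, was detected on all 4 arrays with 1 of its 2 probes. That probe had 3007 and 3042 in HCT116-MT, against 4019 and 2787 in HCT116-WT. The HCT116-MT arrays were nearly equal and lay between those of HCT116-WT (log2 fold change -0.15, SE 0.24, 95% interval -0.73 to 0.44, adjusted p = 0.900 with limma). Its other probe was detected on 0 arrays, at 100 and 94.1 in HCT116-MT and 101 and 123 in HCT116-WT.

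*NFKBIA* encodes IκBα, the inhibitor that NF-κB induces upon its own activation. It had intensities of 2676 and 3397 in HCT116-MT and of 4232 and 2146 in HCT116-WT. The HCT116-WT arrays held both the highest and the lowest value, 0.98 apart on the log2 scale, and the means of the lines were equal to 2 decimals. The log2 fold change was 0.00 (SE 0.35, 95% interval -0.86 to 0.86, adjusted p = 1.00 with limma), so that folds of 0.553 to 1.81 lie within the interval. Leaving out replicate 1 of HCT116-WT gave 0.49 and leaving out its replicate 2 gave -0.49.

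*TNFAIP3* encodes A20, a ubiquitin-editing enzyme that shuts off signaling from the TNF receptor to the IκB kinase. Its probe was detected on all 4 arrays, at 357 and 490 in HCT116-MT and at 213 and 364 in HCT116-WT. Replicate 2 was the higher array in both lines, and the lines overlapped only in that replicate 1 of HCT116-MT lay just below replicate 2 of HCT116-WT. The log2 fold change was 0.59 (SE 0.32, 95% interval -0.19 to 1.36, adjusted p = 0.641 with limma). Without replicate 1 of HCT116-WT it was 0.20. It passed the study thresholds once replicate 2 of HCT116-WT was left out (0.98) and in the fit with the replicate number as a block, with adjusted p = 0.301 and 0.598 by limma and a range of 0.301 to 1 over all alternatives. The intensities of *NFKBIA*, *TNFAIP3* and *RELB* depend on which deposited table is used, since their probes are among those whose values stand under other IDs in the series table. *RELB*, the NF-κB subunit of the non-canonical branch, had 310 and 358 in HCT116-MT and 352 and 272 in HCT116-WT. Replicate 1 of HCT116-WT lay between the HCT116-MT arrays and replicate 2 below both (log2 fold change 0.11, SE 0.22, 95% interval -0.43 to 0.65, adjusted p = 0.929 with limma).

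**Figure D2:**
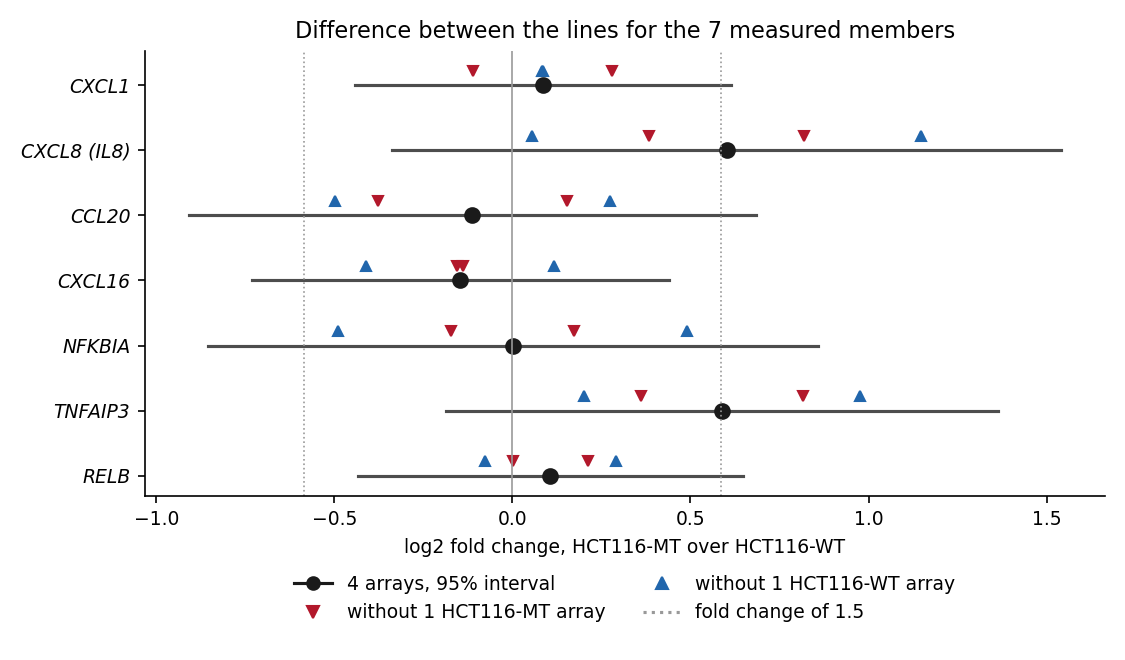
Log2 fold change, HCT116-MT over HCT116-WT, of the 7 measured genes with 95% intervals from limma (circles), and the value without 1 HCT116-MT array (red) or without 1 HCT116-WT array (blue), dotted lines marking a fold change of 1.5. All 7 intervals hold 0, and leaving out 1 HCT116-WT array puts *CXCL8* at 0.05 or 1.15.

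The genes did not share 1 order of the arrays. Counted with no tolerance for ties, *CXCL1*, *CXCL8* and *CCL20* were higher on replicate 1 of HCT116-MT and on replicate 2 of HCT116-WT, 3 of 7 genes, against 27.0% of all genes, although *CXCL1* was at 150 on both HCT116-WT arrays. *NFKBIA*, *RELB* and *CXCL16* had the opposite pattern, higher on replicate 2 of HCT116-MT and on replicate 1 of HCT116-WT, again 3 of 7, against 27.4% of all genes, although the HCT116-MT arrays of *CXCL16* were nearly equal at 3007 and 3042. *TNFAIP3* was higher on replicate 2 of both lines. Apart from the near ties, *CXCL8* and *CCL20* thus had 1 order and *NFKBIA* and *RELB* the opposite one. *CCL20* was detected on only 1 array of each line, so that its order rests partly on background signal. The interferon-stimulated genes, higher on replicate 1 of HCT116-WT by a median of 2.54, were close on the HCT116-MT arrays (median 0.05), and their part in these values was not tested.

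Distances between the arrays of a line were wide for these genes. The median absolute distance between the HCT116-MT arrays was 0.39 on the log2 scale over the 7 genes and 0.21 over all genes, and between the HCT116-WT arrays 0.77 and 0.27. The values of 0.39 and 0.77 were those of *CXCL1* and *CCL20*, each with 1 of the 2 arrays undetected, so that these medians rest partly on background signal. A distance of more than 1 between the HCT116-WT arrays was found for *CXCL8*, 1 of 7 genes, against 5.50% of all genes. These are descriptions of 4 arrays and have no test.

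**Figure D3:**
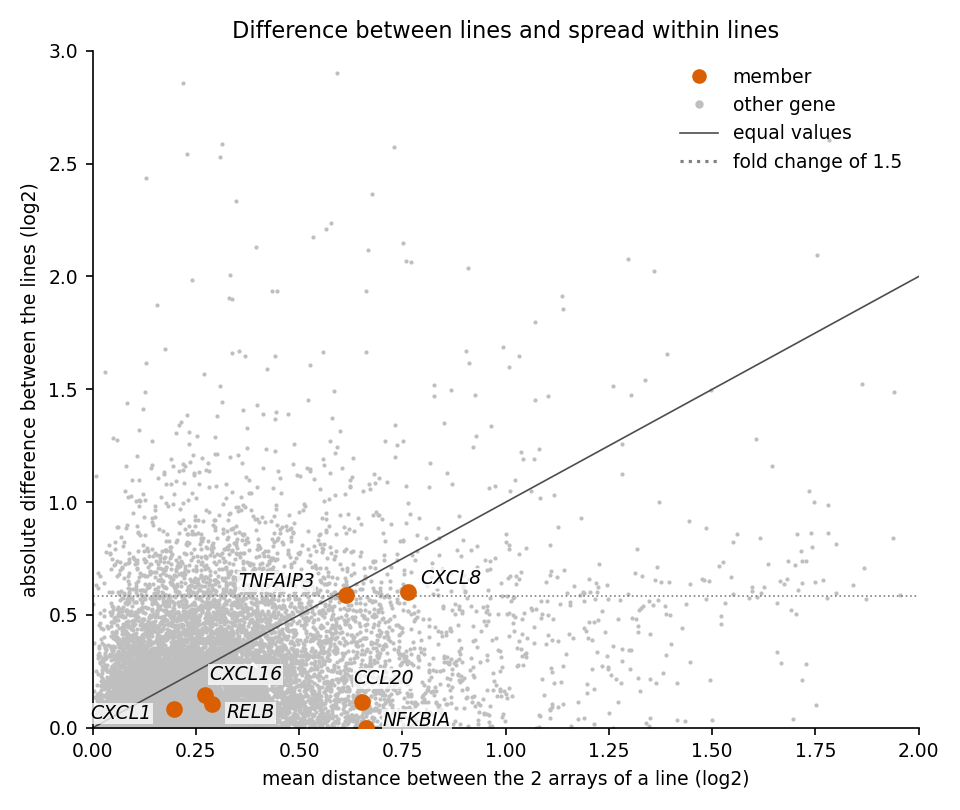
Absolute difference between the line means (y axis, log2) against the mean distance between the 2 arrays of a line (x axis, log2) for 11875 genes (grey) and the 7 measured genes (orange), with a line of equal values and a dotted line at a fold change of 1.5; 9 genes lie outside the range shown. All 7 genes lie below the line of equal values, *TNFAIP3* just under it.

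The wider pathway was described with 174 further genes in 8 lists, of which 162 had a probe and 92 were measured. The lists were chosen with earlier results of these data known, so that their shares beside those of all genes are descriptions only. In HCT116-MT 1 gene (1.09%) was higher and 8 (8.70%) were lower at the study thresholds, against 3.46% and 3.85% of all genes, and 0 at adjusted p under 0.05 with limma (13 at unadjusted p under 0.05). The median log2 fold change was -0.14, with 32 genes above 0 and 60 below. Of the 9 called genes, 3 were past the thresholds under all 15 alternatives: *CD83*, *IL18R1* and *LAMB3*. The count of lower genes was 4 when replicate 1 of HCT116-MT was dropped and 14 when replicate 2 of HCT116-WT was.

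Other chemokines were mostly undetected, as 3 of 33 listed genes were measured. One of them fell, *CCL5*, which attracts T cells and monocytes, with intensities of 151 and 203 in HCT116-MT, against 535 and 252 in HCT116-WT. The value of 151 was near the lowest detected signal of its array (145). Both HCT116-MT arrays lay below both HCT116-WT arrays, of which replicate 1 was the higher by 1.08 on the log2 scale (log2 fold change -1.07, SE 0.38, adjusted p = 0.484 by limma). The other *CCL5* probe was detected on 1 array only. The value was -0.53 without that array and -0.85 without replicate 1 of HCT116-MT, and missed the thresholds in both. The interferon-stimulated genes were also higher on replicate 1 of HCT116-WT, and their part in this result was not tested. Among 6 measured genes of chemokine receptors and shedding enzymes 0 were called (median -0.16). *CCR6*, the receptor of CCL20, had 12756 and 23661 in HCT116-MT and 18770 and 29451 in HCT116-WT with 1 probe (log2 fold change -0.44, SE 0.37), whereas its 2 other probes were detected on 0 arrays, so that its level is uncertain. *ADAM10*, which sheds CXCL16 from the membrane, had 844 and 691 in HCT116-MT and 833 and 700 in HCT116-WT, with a 95% interval of -0.53 to 0.53.

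Upstream of the kinases, the ligands showed no call among 7 measured genes (median -0.06). *IL18*, an epithelial cytokine of the interleukin-1 family, had 5166 and 10724 in HCT116-MT and 10752 and 16584 in HCT116-WT (log2 fold change -0.84, SE 0.40, 95% interval -1.81 to 0.13). The lines were separate only by a narrow margin, and *IL18* passed the thresholds when replicate 2 of HCT116-MT (-1.37) or replicate 1 of HCT116-WT (-1.16) was dropped, with no normalization (-0.92) and with the replicate number as a block (-0.84). *TNFSF14*, the ligand LIGHT, had 445 and 854 in HCT116-MT and 514 and 1418 in HCT116-WT with 1 of its 3 probes, the other 2 being detected on 0 arrays (log2 fold change -0.47, SE 0.53). It passed the thresholds without replicate 1 of HCT116-WT (-1.20) and changed sign without replicate 2 (0.26).

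Among receptors and adaptors 2 of 21 measured genes fell (9.52%, against 3.85% of all genes) and 0 rose (median -0.12). *IL18R1*, the receptor chain that binds interleukin-18, had 169 and 174 in HCT116-MT, against 573 and 382 in HCT116-WT. The lines were well apart (log2 fold change -1.45, SE 0.25, adjusted p = 0.231 by limma), and without single arrays the value ran from -1.74 to -1.15. Both HCT116-MT values were near the lowest detected signal of their arrays (145 and 142), so that the size of the change is uncertain. With neqc background correction it was -2.20. *TNFRSF1A*, the main TNF receptor of epithelial cells, had 1489 and 839 in HCT116-MT, against 2665 and 1652 in HCT116-WT (log2 fold change -0.91, SE 0.36, adjusted p = 0.524 by limma). Its arrays were close to overlapping, and its call was lost when replicate 2 of HCT116-MT (-0.49) or replicate 1 of HCT116-WT (-0.56) was left out.

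The kinase list held 0 calls among 11 measured genes (median -0.01). The IκB kinase complex has 2 catalytic subunits and a scaffold. *CHUK*, which encodes the catalytic subunit IKKα, had 1674 and 2139 in HCT116-MT, against 1203 and 1408 in HCT116-WT. The lines did not overlap, but the fold change of 1.45 was under the study threshold (log2 0.54, SE 0.22, unadjusted p = 0.0499, adjusted p = 0.537 with limma), and it passed without replicate 2 of HCT116-WT (0.65). *IKBKB*, the gene of IKKβ, had 552 and 571 in HCT116-MT and 657 and 546 in HCT116-WT (log2 fold change -0.09, 95% interval -0.58 to 0.40). *IKBKG*, the gene of the scaffold NEMO, had 848 and 841 in HCT116-MT and 667 and 693 in HCT116-WT (log2 fold change 0.31, 95% interval -0.14 to 0.77). *MAP3K7*, the kinase TAK1 that activates the complex, had 2669 and 2591 in HCT116-MT and 1914 and 2165 in HCT116-WT (log2 fold change 0.37, SE 0.19). Its probes disagreed in size, the dimmer one giving 0.61 (SE 0.17, unadjusted p = 0.0136 with limma). The dimmer probe was thus past the study thresholds, whereas the brighter one, which stands for the gene, was not.

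NF-κB subunits and IκB proteins had 0 calls among 7 measured genes (median 0.05). *RELA*, the activating subunit p65, had 176 and 207 in HCT116-MT and 195 and 242 in HCT116-WT (log2 fold change -0.19, 95% interval -0.71 to 0.34). Its signal was low, with 176 near the lowest detected signal of that array (145), so that the size of any *RELA* difference is uncertain. *NFKB1*, the gene of p105 and its product p50, had 1666 and 2230 in HCT116-MT and 2242 and 882 in HCT116-WT. As for *NFKBIA*, the HCT116-WT arrays held the highest and the lowest value, replicate 1 being higher by 1.35 on the log2 scale, and the log2 fold change was 0.46 (SE 0.45). It passed the thresholds as higher when replicate 1 of HCT116-WT was dropped (1.13) and was at -0.22 when replicate 2 was. *NFKBIZ*, which encodes the nuclear protein IκBζ, had 533 and 884 in HCT116-MT and 507 and 1612 in HCT116-WT, with replicate 2 the higher HCT116-WT array (log2 fold change -0.40, SE 0.55). It passed as lower when replicate 1 of HCT116-WT was dropped (-1.23) and was at 0.44 when replicate 2 was. Over the wider pathway 8 of 92 genes (8.70%) had HCT116-WT arrays more than 1 apart, against 5.50% of all genes, of which 5 were higher on replicate 1 (*RBCK1*, *LTBR*, *NFKB1*, *MYD88* and *CCL5*) and 3 on replicate 2 (*NFKBIZ*, *TNFSF14* and *GADD45B*).

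Feedback genes other than those of the opening list gave 0 calls among 12 measured (median -0.07). *IER3*, an early survival gene induced by NF-κB, had 10565 and 10381 in HCT116-MT and 15535 and 14789 in HCT116-WT. The arrays of each line were close and the lines did not overlap, but its fold in HCT116-WT over HCT116-MT, 1.45, was under the study threshold (log2 fold change -0.53, SE 0.19, unadjusted p = 0.0286, adjusted p = 0.476 with limma). With cyclic loess *IER3* passed the thresholds as lower (-0.62). *TAX1BP1*, a partner of A20, had 3995 and 3557 in HCT116-MT and 3411 and 3434 in HCT116-WT (log2 fold change 0.14, 95% interval -0.33 to 0.61).

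Other target genes held most of the calls, as 5 of 25 measured genes fell (20%, against 3.85% of all genes) and 1 rose (4%, against 3.46%), with a median of -0.29. This list too was chosen with earlier results of these data known, and these shares have no test. *LAMB3*, a chain of the basement membrane protein laminin-332, had 305 and 286 in HCT116-MT, against 1161 and 758 in HCT116-WT (log2 fold change -1.67, SE 0.26, adjusted p = 0.197 by limma). Without replicate 2 of HCT116-WT it had adjusted p = 0.0394 by limma, the lowest of a range of up to 1 over the alternatives. The other 2 probes of *LAMB3* were detected on 0 arrays. *CD44*, the hyaluronan receptor, had 4639 and 5454 in HCT116-MT, against 11696 and 7326 in HCT116-WT, and its 3 kept probes gave log2 fold changes of -0.88, -0.92 and -0.50. The probe at -0.50 was detected on 2 arrays only, with 163 and 177 in HCT116-WT. Its HCT116-MT values, 124 and 116, lay under the lowest detected signal of their arrays (145 and 142), so that this fold change rests partly on background signal. The call of *CD44* was lost without replicate 1 of HCT116-MT (-0.76) or of HCT116-WT (-0.54). *LCN2*, a secreted siderophore-binding protein, had 141 and 143 in HCT116-MT, against 290 and 215 in HCT116-WT (log2 fold change -0.81, SE 0.22). The value of 141 was not detected and lay under the lowest detected signal of its array (145). The value of 143 was at the lowest detected signal of its array (142), so that this fold change rests partly on background signal. The call of *LCN2* was lost without either HCT116-MT array (-0.81 and -0.82). *CD83*, a membrane protein best known from mature dendritic cells, was the one gene that rose. It had 901 and 853 in HCT116-MT, against 491 and 501 in HCT116-WT, with close arrays within each line (log2 fold change 0.82, SE 0.19, adjusted p = 0.341 by limma), and its second probe gave 0.81. *PLAUR*, the urokinase receptor (-0.70, SE 0.27), and *EFNA1*, a ligand of Eph receptors (-0.67, SE 0.19), fell as well and are named after their values were seen. The further *PLAUR* probes, detected on all 4 arrays, gave -0.48 and -0.61 and were not called. A further *EFNA1* probe, detected on all 4 arrays, was not called either (-0.26). Both calls were lost when some single arrays were left out. *PLAUR* was at -0.80 or -0.61 when replicate 1 or 2 of HCT116-MT was dropped and at -0.37 when replicate 1 of HCT116-WT was. *EFNA1* was at -0.71 or -0.64 when replicate 1 or 2 of HCT116-MT was dropped and at -0.58 when replicate 2 of HCT116-WT was.

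Beside these falls, the epithelial marker *EPCAM* (log2 fold change -0.92) and the lysosomal protein *CD68*, counted as a leukocyte marker (-1.61), were also lower in HCT116-MT. Of the epithelial markers, *KRT8* at -0.35, *KRT19* at -0.60 and *CDX2* at 0.19 were not called (median of the list -0.47). The other 3 measured leukocyte markers were not called, with *LYZ* at 0.29, *CD14* at 0.06 and *ITGAM* at -0.07 (median of the list 0.00), and the summed leukocyte markers, 2411 and 2663 in HCT116-MT and 3912 and 5315 in HCT116-WT, moved with *CD68*. Summed fibroblast and endothelial markers, 4 of 13 of them detected, were at 1789 and 1835 in HCT116-MT and 1815 and 1847 in HCT116-WT. Their part in the results was not tested. The samples were cultures of HCT116 sublines. In their bulk RNA, a lower level in every cell and a lower level in a part of the cells cannot be told apart.

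**Figure D4:**
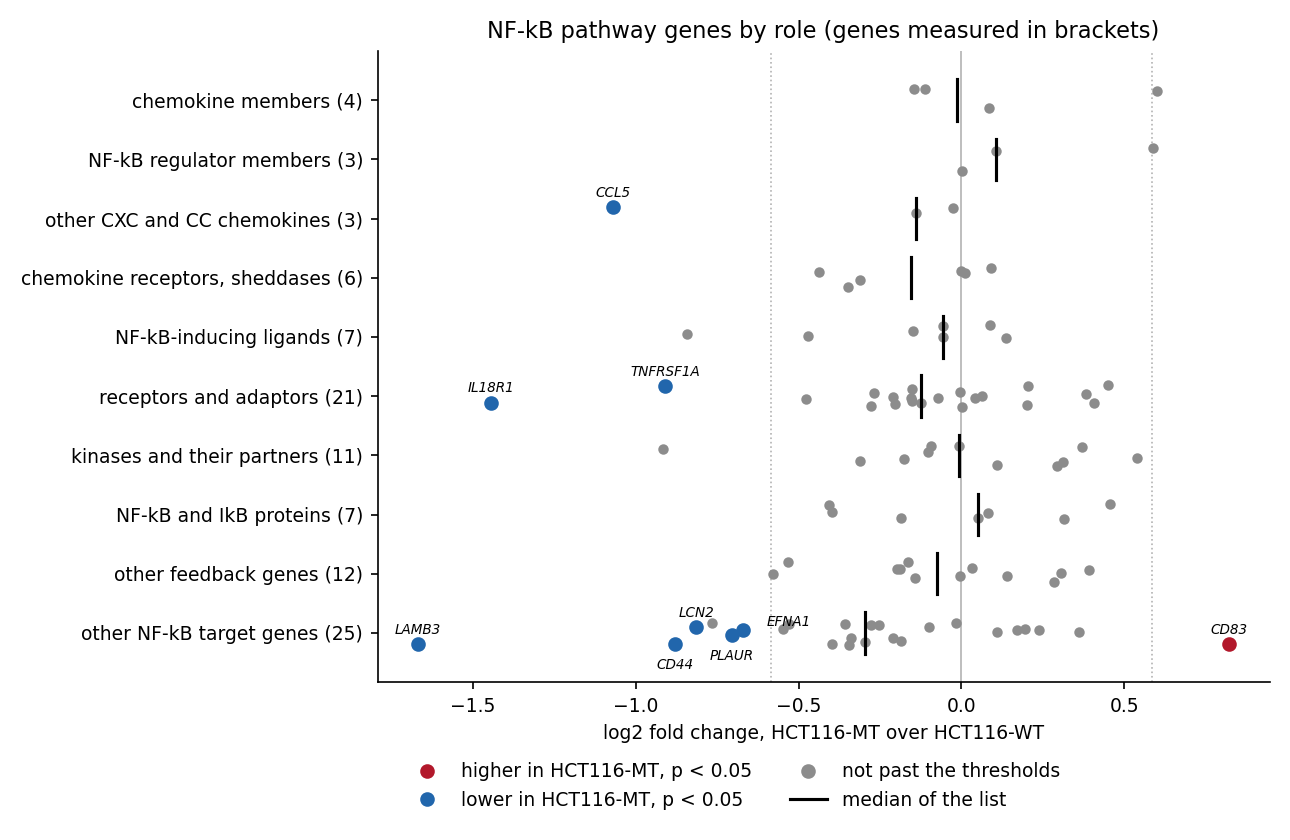
Log2 fold change, HCT116-MT over HCT116-WT, of the 7 measured genes (upper 2 rows) and the 92 further pathway genes by role, with genes past the study thresholds in red (higher in HCT116-MT) or blue (lower), the median of each row as a black bar and dotted lines at a fold change of 1.5. *CD83* at 0.82 is the only red point, and 5 of the 8 blue points are other target genes.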

How the data were processed

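RNA of 2 HCT116-MT and 2 HCT116-WT samples was measured on Illumina HumanHT-12 v4 arrays. With GenomeStudio the authors obtained, and deposited for each probe, an intensity that was not normalized between arrays and a detection p-value against negative controls. Of 47319 probe IDs shared with the deposited series table, 26122 (55.2%) hold other intensity values there, each found under another ID of the non-normalized table. Probe pairs of a gene among these correlated at r = 0.532 in the non-normalized table and at 0.265 in the series table, so that only the non-normalized table gave values. *NFKBIA*, *TNFAIP3* and *RELB* are among these IDs.

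Values were log2-transformed and then quantile-normalized between arrays. The 20579 of 47321 probes with detection p under 0.05 on at least 2 of 4 arrays were fitted with limma 3.58.1 in R 4.3.3, without covariates, and p-values were adjusted by the Benjamini-Hochberg method. The brightest kept probe stood for each of 11875 genes. Genes came from a platform table in which 30112 probes had 1 symbol, 8 had several and 17201 had none. The fit was checked on simulated data in which known genes were changed. The 4 arrays limit the precision, and chip position was not modelled. Figures used matplotlib 3.10.9 in Python 3.11.15.

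The genes and lists were chosen with earlier results of these data known. Named were all 10 genes, the core genes *RELA*, *NFKB1*, *CHUK*, *IKBKB* and *IKBKG*, *CTNNB1*, and from each list the called genes (at most 4, by size of change) or, with no call, the 2 brightest. The alternatives were neqc (offset 16), median scaling, cyclic loess, no normalization, no detection filter, detection p under 0.01, the replicate number as a block, detection on both arrays of a line, a mean-variance trend, Student's t-test, the mean of a gene's probes and each array left out.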

Additional observations from a re-analysis of the deposited data

How the results depend on the processing

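The 4 arrays limit what can be seen: the median SE of a log2 fold change was 0.22 over all genes. Of the 10 genes, 0 were lower at the study thresholds under every alternative and 0 reached adjusted p under 0.05 with limma. The count of higher ones was 1 (*TNFAIP3*) with the replicate block, ran from 0 to 2 with single arrays left out (*CXCL8* and *TNFAIP3* without replicate 2 of HCT116-WT), and was 0 otherwise. With an array left out, the spread comes from the line that keeps 2. *NFKBIA* changed sign at -0.0027 with median scaling, -0.028 with cyclic loess and -0.070 with no normalization, and *RELB* at -0.063 with no normalization. With single arrays left out *NFKBIA* ran from -0.49 to 0.49, *RELB* from -0.078 to 0.29, *CXCL1* from -0.11 to 0.28, *CCL20* from -0.50 to 0.27 and *CXCL16* from -0.41 to 0.12.

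Of the wider pathway, 2 genes were higher with neqc and 3 lower with Student's t-test, and with single arrays left out 1 to 3 were higher, 4 to 14 lower and 0 to 1 at adjusted p under 0.05 with limma. Of the 9 called genes *TNFRSF1A* and *PLAUR* were lost with neqc and with median scaling, *TNFRSF1A* with no detection filter, *PLAUR* with no normalization and *EFNA1* with the mean of its probes. The t-test or leaving out replicate 1 of HCT116-MT kept 4 of 9, leaving out its replicate 2 or replicate 1 of HCT116-WT kept 5, and leaving out replicate 2 of HCT116-WT kept 8. The replicate block kept all 9 and added *IL18* and *RBCK1*.

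Over all genes, 411 were higher and 457 lower (47.4% higher). Higher genes numbered 248 with median scaling (32.5% of calls), 130 with no normalization (17.7%), where the median of all genes was -0.12, and 152 with the t-test, against 175 lower; with cyclic loess 37.5% of calls were higher. Single arrays left out gave 208 to 765 higher and 224 to 837 lower. At adjusted p under 0.05 limma called 8 genes, 5 with median scaling, 0 with no detection filter, 0 with the replicate block, 18 with the trend and 0 to 54 with single arrays left out, and the t-test called 1. Over all kept probes the deviations of same-numbered arrays correlated at r = 0.05, with 2 numbers only. This 1 value cannot settle whether the replicate numbers pair the samples for a part of the genes. The cause of these changes was not tested.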
